A study of Mus musculus with 12 samples.

Results

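Pimobendan was compared with control treatment in hearts that had not been pressure loaded. The comparison set 3 left ventricles from sham-operated mice given pimobendan (Sham+pimobendan) against 3 left ventricles from sham-operated mice without it (Sham+control), 6 of the 12 libraries of the series. Of 17052 genes in the deposited table, 11415 had at least 1 FPKM (fragments mapped to a gene, scaled by transcript length and by the library's total) in at least 3 of the 12 libraries and were tested. All mice were C57BL/6. In Sham+pimobendan the aortic arch was exposed through the neck at 8 weeks of age, with the thymus stripped but no clip placed, pimobendan was given orally at 1 mg/kg per day for 4 weeks, and the ventricle was taken at 12 weeks of age. Sham+control mice had the same surgery and ages, and the labels name no vehicle. The remaining 6 libraries, TAC+pimobendan and TAC+control with 3 mice each, came from mice whose aortic arch was narrowed with a clip (transverse aortic constriction, TAC) at the same age, with and without the same oral dose. They entered the fit for its estimate of the spread and were set beside the sham values only near the end. The labels do not give the sex of the mice or the time of day at which hearts were taken.

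Pimobendan is an inodilator used for heart failure in dogs. It inhibits phosphodiesterase 3, the enzyme that breaks down cyclic AMP beside the calcium pump of the sarcoplasmic reticulum, and it makes cardiac troponin C more sensitive to calcium, so that the myofilaments develop more force at a given calcium level. In heart muscle cyclic AMP acts through protein kinase A on phospholamban, ryanodine receptors, troponin I and L-type calcium channels, and in the nucleus through the CREB family of transcription factors.

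The tissue label was in accord with the light chain and lymphocyte markers. The ventricular light chain Myl2 had 21071, 18779.7 and 20373 FPKM in Sham+pimobendan, against 21113, 22713 and 19392 FPKM in Sham+control. The atrial light chain Myl7 had 0.35, 0.38 and 0.53 FPKM in Sham+pimobendan, against 0.53, 0.00 and 0.19 FPKM in Sham+control, and all 12 lymphocyte markers were below the expression filter or missing from the table. Of 8 atrial markers 6 were tested, 5 higher and 1 lower in Sham+pimobendan, with a median log2 difference of 0.14. Their sum, which includes Nppa, was 587, 274 and 258 FPKM in Sham+pimobendan and 246, 297 and 340 FPKM in Sham+control. Summed FPKM ran from 610509 to 640959 in Sham+pimobendan and from 597185 to 625423 in Sham+control, and the number of genes at or above 1 FPKM from 10904 to 11215 and from 10939 to 11133. Pearson's r across genes, on log2 values and without independence of genes, was 0.986 to 0.994 between libraries of the same sham group and 0.986 to 0.994 between libraries of different sham groups. Sequencing depth cannot be read from the table, which holds FPKM and no counts.

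No gene passed the test for pimobendan after sham surgery. With limma on log2(FPKM + 1) and Benjamini-Hochberg adjustment over 11415 genes, 0 genes (0%) had an adjusted p under 0.05, and the smallest adjusted p was 0.91. At an unadjusted p under 0.05 there were 518 genes (4.54%), 299 higher in Sham+pimobendan (2.62%) and 219 lower (1.92%), where 570.75 would be expected if no gene differed. In 1271 genes (11.1%) the 3 values of one group lay wholly above or below those of the other, 703 higher (6.16%) and 568 lower (4.98%). Of all genes 6125 (53.7%) were higher and 5290 (46.3%) lower in Sham+pimobendan, with a median log2 fold change of 0.01 and quartiles of -0.08 and 0.10. The 95% interval of the log2 fold change lay inside -1 to 1 for 11180 genes (97.94%), and its median distance from the estimate to either end was 0.27. These intervals are not adjusted for the number of genes, and log2 differences of up to 1.26 were not called. Of the 12 genes with a fitted difference of at least 1 in either direction, none was called. Counts at an unadjusted p in the gene groups below are descriptions, to be read against 2.62% higher and 1.92% lower among all genes, and a gene is said to be higher or lower, not changed. Log2 fold changes are Sham+pimobendan minus Sham+control on the log2(FPKM + 1) scale, which understates the change of low genes, and are given ± their standard error.

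**Figure D1:**
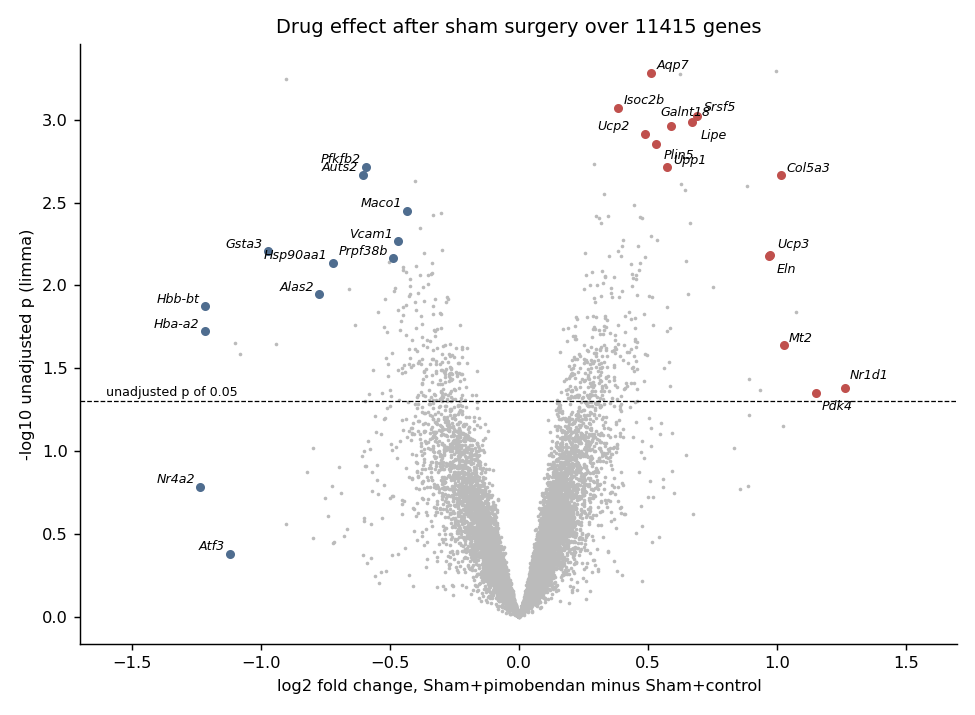
Each point is 1 of 11415 genes, with its log2 fold change (Sham+pimobendan minus Sham+control, log2(FPKM + 1) scale) on the x axis and -log10 of limma's unadjusted p on the y axis. Named genes are red where higher with pimobendan and blue where lower, and the dashed line marks an unadjusted p of 0.05. The genes farthest from zero lie near 1.2 in either direction and none reached an adjusted p under 0.05, the smallest being 0.91.

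The direct targets of the drug were expressed and near their control levels. Pde3a, the main phosphodiesterase 3 of heart muscle (chr6:141249269-141506862, GRCm38), had 8.92, 10.9 and 7.2 FPKM in Sham+pimobendan, against 9.17, 7.61 and 6.46 FPKM in Sham+control. The groups overlapped, with a log2 difference of 0.19 ± 0.16 (95% interval -0.16 to 0.54). Pde3b, the form typical of fat and liver, had 1.05, 0.91 and 1.01 FPKM in Sham+pimobendan and 0.91, 1.05 and 0.69 FPKM in Sham+control. Tnnc1, which encodes troponin C, had 4005, 4118 and 4374 FPKM in Sham+pimobendan, against 3869.8, 4381 and 4748 FPKM in Sham+control, and its log2 difference was -0.05 ± 0.12. The inhibitory subunit Tnni3 differed by 0.00 ± 0.08, phospholamban (Pln) by -0.03 ± 0.10, the calcium pump Atp2a2 by 0.01 ± 0.07 and the ryanodine receptor Ryr2 by -0.17 ± 0.11 on the log2 scale. All 95% intervals of these included 0, and those of Atp2a2 (-0.14 to 0.16) and Tnni3 (-0.17 to 0.18) were the narrowest among them.

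Among phosphodiesterases outside the target, Pde2a was the member with the smallest p. Pde2a, which hydrolyses cyclic AMP when stimulated by cyclic GMP, had 32.95, 34.2 and 37.1 FPKM in Sham+pimobendan, against 28.1, 24.3 and 25.8 FPKM in Sham+control (chr7:101421691-101512829). Every treated value lay above every control value, and the log2 difference was 0.40 ± 0.12 (95% interval 0.14 to 0.66). Of the 15 phosphodiesterases tested, 10 were higher and 5 lower, with a median log2 difference of 0.03, and Pde2a alone had an unadjusted p under 0.05. Without the second treated mouse 6 were higher and 9 lower. Pde7a stood second and lower, at 10.6, 6.86 and 7.36 FPKM in Sham+pimobendan and 9.05, 14.97 and 8.94 FPKM in Sham+control with overlapping groups. Pde4d, which shares the cyclic AMP load with phosphodiesterase 3 in mouse heart, differed by -0.04 ± 0.16.

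Receptor, cyclases and kinase of the cyclic AMP cascade had differences near 0. The beta-1 adrenergic receptor Adrb1 differed by 0.13 ± 0.17 on the log2 scale, the cyclases Adcy5 and Adcy6 by 0.10 ± 0.10 and -0.17 ± 0.09, and the protein kinase A catalytic subunit Prkaca by -0.02 ± 0.08. Adcy6 had 43.6, 41.7 and 42.2 FPKM in Sham+pimobendan, against 47.7, 55.3 and 42.02 FPKM in Sham+control, where the third control lay within the treated range. Over the 35 cascade genes tested, 16 were higher and 19 lower, the median was -0.01, and 3 had an unadjusted p under 0.05. Between 18 and 22 were higher without control 1 or 3 or treated mouse 1 or 3. Popdc2, a membrane protein that binds cyclic AMP, had 402, 359.9 and 412 FPKM in Sham+pimobendan, against 273, 329.6 and 343 FPKM in Sham+control, with no overlap and a log2 difference of 0.32 ± 0.09. Grk5, a kinase that turns off G-protein-coupled receptors, had 11.9, 15.1 and 13.2 FPKM in Sham+pimobendan and 12.5, 7.6 and 9.5 FPKM in Sham+control (0.43 ± 0.15), and the anchoring protein Akap6 had 13.7, 12.7 and 10.4 FPKM in Sham+pimobendan and 16.99, 12.9 and 14.7 FPKM in Sham+control (-0.26 ± 0.12). Grk5 and Akap6 overlapped between groups.

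**Figure D2:**
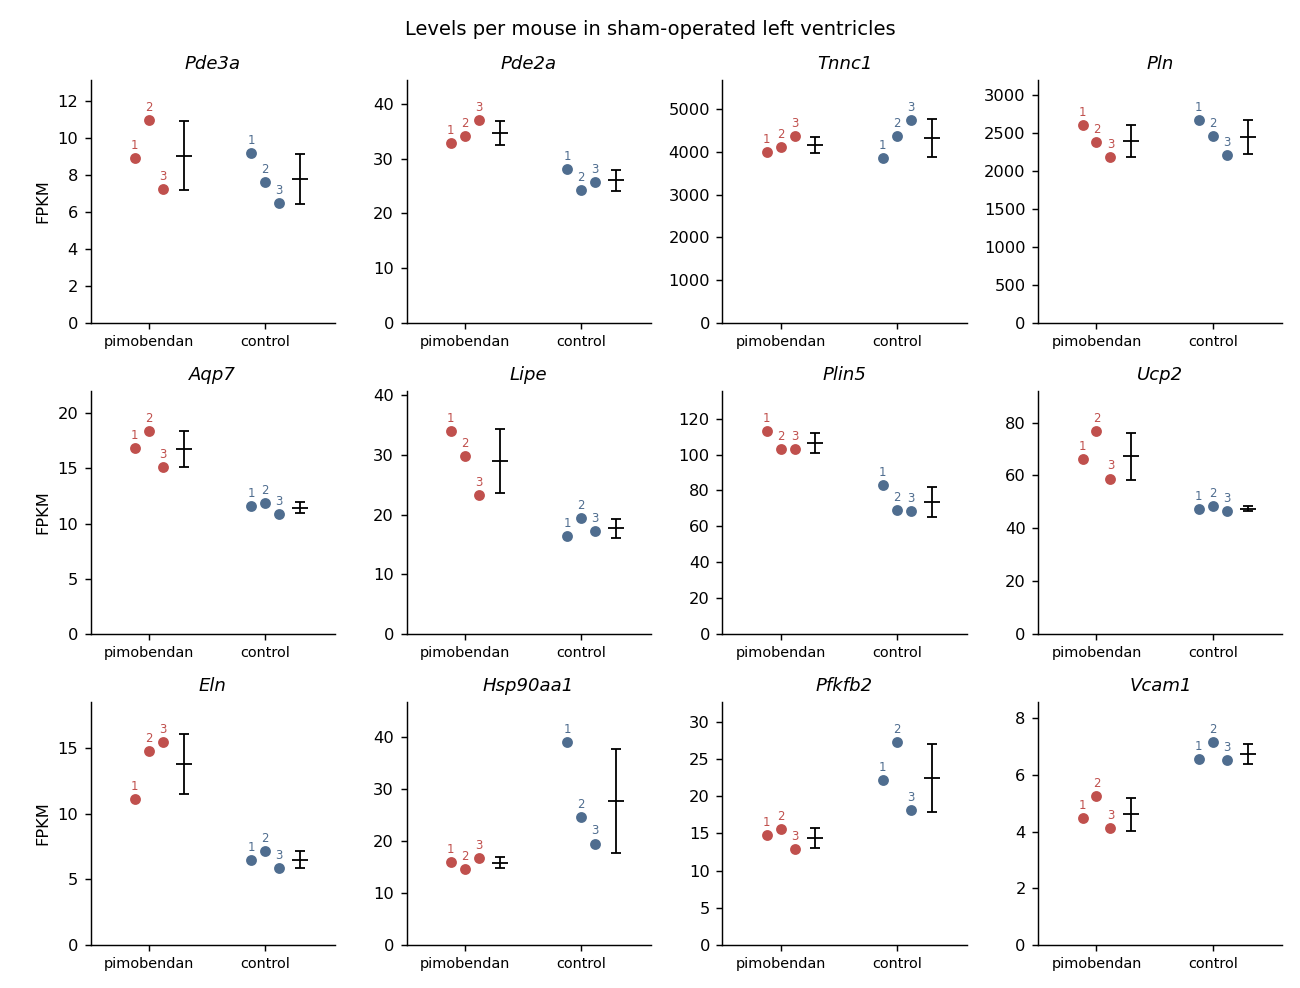
Level of 12 genes in FPKM (y axis, starting at 0) in each sham-operated mouse, numbered 1 to 3 by the labels' replicate number, with Sham+pimobendan left of Sham+control and the mean ± SD as a black bar. Pde3a, Tnnc1 and Pln overlap between groups, whereas Pde2a, Aqp7, Lipe, Plin5, Ucp2 and Eln lie wholly higher and Hsp90aa1, Pfkfb2 and Vcam1 wholly lower with pimobendan, none past the adjusted threshold.

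Among the 10 leading higher genes, 3 handle stored fat. Heart muscle keeps a small pool of triglyceride in lipid droplets, and hormone-sensitive lipase, a target of protein kinase A, is one of the enzymes that hydrolyse it. Lipe, which encodes this lipase, had 33.96, 29.8 and 23.2 FPKM in Sham+pimobendan, against 16.4, 19.4 and 17.3 FPKM in Sham+control (chr7:25379527-25398486). The lowest treated mouse was above the highest control, with a log2 difference of 0.67 ± 0.16 (95% interval 0.33 to 1.01). Plin5, the perilipin that coats droplets beside mitochondria, had 113, 103 and 103 FPKM in Sham+pimobendan, against 82.9, 68.8 and 68.7 FPKM in Sham+control (chr17:56111597-56117606), again without overlap, a log2 difference of 0.53 ± 0.13. Aqp7, the channel that carries glycerol across the membrane, had 16.8, 18.4 and 15.1 FPKM in Sham+pimobendan, against 11.6, 11.8 and 10.9 FPKM in Sham+control (chr4:41033074-41048237). Its groups did not overlap, and its log2 difference was 0.51 ± 0.11.

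Further genes of the same list stood in the same direction. This list of 23 triglyceride storage and lipolysis genes was put together after the values were seen, shares 5 tested genes with the PPAR list below, and is a description only. Of its 21 tested members 17 were higher and 4 lower, with a median log2 difference of 0.09 and 5 at an unadjusted p under 0.05. With the GC correction 14 were higher and 7 lower, with a median of 0.07. Without 1 sham library 15 to 17 were higher. Agpat2, which makes phosphatidic acid for triglyceride synthesis, had 73.6, 66.1 and 60.02 FPKM in Sham+pimobendan and 57.7, 48.9 and 51.3 FPKM in Sham+control. Mgll, the last lipase of the pathway, had 73.5, 94.9 and 95.6 FPKM in Sham+pimobendan and 71.6, 75.01 and 69.96 FPKM in Sham+control, with overlap in Mgll and none in Agpat2. The score of the list, which is the mean log2(FPKM + 1) of its genes relative to Sham+control, was 0.23, 0.14 and 0.12 in Sham+pimobendan and 0.04, 0.00 and -0.04 in Sham+control. The groups did not overlap, but the list holds Lipe, Plin5 and Aqp7, which were named partly for lack of overlap. Its counts and score thus partly restate those genes. The fat cell markers Adipoq, Plin1 and Cidec did not pass the expression filter, and 2 of the 9 did, Cidea and Cfd. Cidea had 39.9, 28.7 and 34.6 FPKM in Sham+pimobendan and 32.7, 29.6 and 26.3 FPKM in Sham+control. Cfd, which encodes adipsin, had 1.53, 0.11 and 0.31 FPKM in Sham+pimobendan and 1.24, 0.00 and 0.66 FPKM in Sham+control. The summed level of the fat cell list was 29.1 to 42.1 FPKM in Sham+pimobendan and 27.2 to 34.9 FPKM in Sham+control, and its part in the values of Lipe, Plin5 and Aqp7 was not tested.

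Targets of the fatty acid receptor PPAR-alpha, which fasting raises in heart, were mostly higher as well, but the count depended on 2 mice. Of 22 tested, 18 were higher and 4 lower, the median was 0.10 and 5 had an unadjusted p under 0.05, against 2.62% of all genes. Ucp2, an uncoupling protein of the inner mitochondrial membrane (chr7:100493337-100499629), had 66.3, 76.7 and 58.8 FPKM in Sham+pimobendan, against 47.2, 48.5 and 46.5 FPKM in Sham+control, with no overlap (0.49 ± 0.12 log2). Its neighbour Ucp3 (chr7:100472991-100486432) had 46.7, 44.6 and 23.5 FPKM in Sham+pimobendan, against 24.7, 19.2 and 12.5 FPKM in Sham+control. The third treated mouse lay below the highest control, and the log2 difference was 0.98 ± 0.30 (95% interval 0.32 to 1.63). Cpt1a, a carnitine transferase for fatty acid entry into mitochondria, had 28.8, 23.1 and 14.9 FPKM in Sham+pimobendan and 16.4, 13.8 and 12.4 FPKM in Sham+control. Pdk4, the kinase that shuts pyruvate dehydrogenase, had 234, 277 and 153 FPKM in Sham+pimobendan and 105, 228 and 36.8 FPKM in Sham+control, a wide spread in both groups. Lipoprotein lipase, Lpl, also in the list, stood the other way, at 921, 769 and 663 FPKM in Sham+pimobendan and 1176, 1009 and 842 FPKM in Sham+control with overlap. The list score was 0.44, 0.18 and 0.04 in Sham+pimobendan and 0.13, 0.18 and -0.31 in Sham+control. The first treated mouse was highest and the third control lowest, and leaving out either of these gave 12 of 22 genes higher.

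The enzymes of beta-oxidation had smaller differences and depended on the same mice. Of 19 tested, 18 were higher, none with an unadjusted p under 0.05, and the median log2 difference was 0.07. Cpt1b, the muscle carnitine transferase, had 407, 369 and 369.6 FPKM in Sham+pimobendan, against 347, 360.3 and 320.4 FPKM in Sham+control, with no overlap and a log2 difference of 0.16 ± 0.08. Acads, a short-chain acyl-CoA dehydrogenase, had 151, 163 and 164 FPKM in Sham+pimobendan and 129, 145 and 157 FPKM in Sham+control with overlap. Without the first treated mouse 12 of the 19 were higher and the median was 0.01. Without the third control mouse 12 of the 19 were higher as well, and with TPM in place of FPKM 14 of 19.

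Glucose metabolism gave single genes in either direction. Pfkfb2, the heart enzyme that makes fructose 2,6-bisphosphate and so drives glycolysis, had 14.8, 15.5 and 12.9 FPKM in Sham+pimobendan, against 22.1, 27.2 and 18.1 FPKM in Sham+control (chr1:130689043-130729253). All treated values were below all control values (log2 difference -0.59 ± 0.15). Its relative Pfkfb1 had 10.1, 9.81 and 10.2 FPKM in Sham+pimobendan and 4.91, 6.09 and 10.4 FPKM in Sham+control. Hexokinase Hk1 was higher without overlap, at 64.5, 63.5 and 63.8 FPKM in Sham+pimobendan, against 52.8, 48.2 and 58.5 FPKM in Sham+control (0.27 ± 0.10 log2), and Hk2 lower without overlap, at 62.9, 67.4 and 66.5 FPKM in Sham+pimobendan and 75.1, 73.97 and 80.4 FPKM in Sham+control (-0.22 ± 0.09 log2). Over 21 glycolytic genes 15 were higher and 6 lower, 2 in each direction had an unadjusted p under 0.05, and the median was 0.04. Without the first control 7 of 21 were higher, without the third treated mouse 10 of 21, and with the GC correction 9 of 21. The citric acid cycle (16 of 25 higher, median 0.03) and the respiratory chain (51 of 79 higher, median 0.02) had medians close to that of all genes, with either direction in the alternatives. In the respiratory chain 24 of 79 were higher without the first control and 18 of 79 without the third treated mouse, and the median was below 0 with TPM or quantile normalization. In the citric acid cycle 8 of 25 were higher without the first control and 11 of 25 without the third treated mouse or with quantile normalization. In the respiratory chain, complex I subunit Ndufa1 had 293, 274 and 288 FPKM in Sham+pimobendan, against 352, 324 and 296 FPKM in Sham+control, lower without overlap. Complex IV subunit Cox7a1 had 2911, 2971 and 3362 FPKM in Sham+pimobendan and 2707, 2879 and 2754 FPKM in Sham+control, higher without overlap.

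Genes that CREB activates were widely scattered between mice of one group. These include the nuclear receptors Nr4a1 to Nr4a3, the AP-1 subunits Fos and Fosb, and phosphatase Dusp1, all of which can respond to cyclic AMP within minutes and also to handling, anaesthesia or stretch. Nr4a1 had 220.3, 44.98 and 119 FPKM in Sham+pimobendan, against 351, 327 and 31.6 FPKM in Sham+control (chr15:101253902-101274795), a log2 difference of -0.54 ± 1.09. The third control mouse was lowest of all 6 and the other controls were highest. Atf3, a stress-induced factor of the same family, had 58.3, 6.76 and 20.1 FPKM in Sham+pimobendan, against 132, 91.1 and 7.13 FPKM in Sham+control, and Fos had 71.4, 25.4 and 52.97 FPKM in Sham+pimobendan, against 96.99, 169 and 18.8 FPKM in Sham+control. In Nr4a1, Atf3 and Fos alike, the second treated mouse and the third control held the lowest values. Nr4a2, a relative of Nr4a1, had 3.05, 0.42 and 1.04 FPKM in Sham+pimobendan and 10.03, 8.64 and 0.44 FPKM in Sham+control (-1.24 ± 0.84 log2).

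Of the 21 CREB targets tested, 20 were lower and 1 higher in Sham+pimobendan, yet 0 had an unadjusted p under 0.05 and 0 had groups that did not overlap. The median log2 difference was -0.39. Crem, whose short form is itself made under cyclic AMP, had 2.43, 2.91 and 3.12 FPKM in Sham+pimobendan, against 4.8, 2.58 and 2.87 FPKM in Sham+control (-0.18 ± 0.21 log2). Ppargc1a, the coactivator of mitochondrial genes, had 14.6, 10.4 and 10.6 FPKM in Sham+pimobendan and 16.4, 21.3 and 11.1 FPKM in Sham+control. Gadd45b, a DNA damage and demethylation factor, had 9.61, 8.73 and 8.89 FPKM in Sham+pimobendan and 13.2, 14.9 and 9.06 FPKM in Sham+control. The list score was -0.03, -0.87 and -0.41 in Sham+pimobendan and 0.54, 0.51 and -1.05 in Sham+control. All 21 were lower when the third control was left out, with 4 at an unadjusted p under 0.05, and 15 of 21 were lower when the first control was left out. The immediate early list, which shares 10 tested genes with it, had 20 of 25 lower, a median of -0.32 and scores of -0.01, -0.81 and -0.22 in Sham+pimobendan and 0.52, 0.63 and -1.16 in Sham+control. Without the second control mouse, 14 of the 25 were higher and the median was 0.05, so the direction of this list rested on single mice. Maff, a small partner of AP-1 factors, had 7.17, 5.39 and 6.44 FPKM in Sham+pimobendan and 12.9, 11.04 and 4.93 FPKM in Sham+control. Fosl2, an AP-1 subunit, had 13.9, 6.31 and 9.57 FPKM in Sham+pimobendan and 34.4, 20.4 and 5.22 FPKM in Sham+control.

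CREB binds the cyclic AMP response element, and that element is shown here in the promoters of the only 2 CREB targets of the list that held the full letters TGACGTCA, a palindrome that reads the same on both strands. The window is RefSeq's (GRCm38.p6), 250 bases before to 50 after the gene start, and 16 of the 21 genes had one. The share with the element was 12.5% of these genes, beside 3.52% of the 9129 genes with a promoter and 2.92% of the 11753 promoters. In other lists it ran from 0% to 21.4% (3 of 14 MAP kinase feedback genes, Dusp1 among them). Besides the heat shock element below, 2 further elements were looked for. The PPAR element was in 0 of 19 PPAR list genes, and the serum response element in 0 of 21 immediate early genes. Both are rare, at 0.0438% and 0.0329% of the 9129 genes, so counts of 0 cannot decide. Capitals mark the CREB element. Btg2, an antiproliferative gene (chr1:134079106-134079405, minus strand), had 196, 63.3 and 109 FPKM in Sham+pimobendan, against 250.2, 320.4 and 49.2 FPKM in Sham+control. Dusp1 (chr17:26508423-26508722, minus strand), had 217, 159 and 181 FPKM in Sham+pimobendan, against 287, 312 and 107 FPKM in Sham+control.
Btg2: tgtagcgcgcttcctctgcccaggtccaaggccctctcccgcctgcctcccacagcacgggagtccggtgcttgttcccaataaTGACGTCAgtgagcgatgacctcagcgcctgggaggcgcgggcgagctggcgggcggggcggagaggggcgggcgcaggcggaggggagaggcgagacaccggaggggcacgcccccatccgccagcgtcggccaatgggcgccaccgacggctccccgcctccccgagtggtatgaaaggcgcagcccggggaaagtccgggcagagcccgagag
Dusp1: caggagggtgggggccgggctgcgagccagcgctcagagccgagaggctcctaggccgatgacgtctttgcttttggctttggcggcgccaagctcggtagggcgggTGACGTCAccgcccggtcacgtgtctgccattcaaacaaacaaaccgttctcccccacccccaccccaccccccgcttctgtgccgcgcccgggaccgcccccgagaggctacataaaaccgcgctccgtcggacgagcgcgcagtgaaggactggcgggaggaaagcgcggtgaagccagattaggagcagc
Both genes had their lowest value in the third control and their highest in the second control. The range from lowest to highest value within each group was wider than the difference between the group means.

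**Figure D3:**
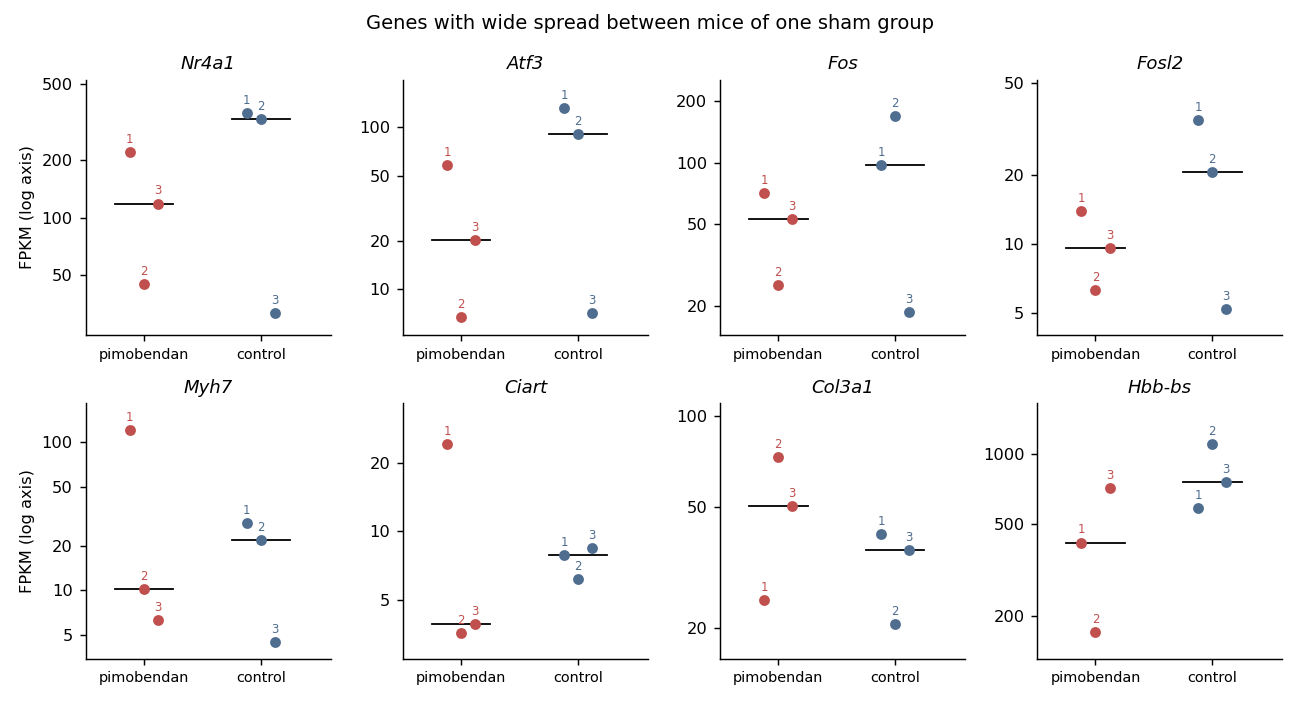
Level of 8 genes in FPKM on a log axis in each sham-operated mouse (numbers are replicate numbers, black lines are group medians), Sham+pimobendan left of Sham+control. Nr4a1, Atf3, Fos and Fosl2 are low in the second treated and the third control mouse, Myh7 and Ciart are highest in the first treated mouse, Col3a1 is highest and Hbb-bs lowest in the second treated mouse.

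Heat shock chaperones were lower with pimobendan in nearly the whole list, at small size. These proteins fold others under heat, oxidation or mechanical strain, and several are induced by heat shock factor. Hsp90aa1, the inducible HSP90, had 15.95, 14.7 and 16.8 FPKM in Sham+pimobendan, against 39.03, 24.7 and 19.5 FPKM in Sham+control (chr12:110691036-110696395). All treated mice lay below every control, and the log2 difference was -0.72 ± 0.23 (95% interval -1.21 to -0.23). Hspa4 had 24.9, 26.95 and 26.1 FPKM in Sham+pimobendan, against 33.9, 30.04 and 28.3 FPKM in Sham+control, also without overlap. The co-chaperone Dnaja1 had 8.46, 7.58 and 9.78 FPKM in Sham+pimobendan and 16.8, 13.2 and 8.9 FPKM in Sham+control, with overlap. Hspa8, the constitutive HSP70, had 941, 886 and 1079 FPKM in Sham+pimobendan and 1254, 1274 and 1019 FPKM in Sham+control.

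Of 20 heat shock genes tested, 18 were lower and 2 higher, 4 had an unadjusted p under 0.05 and were lower, against 1.92% of all genes, and the median was -0.12. Hspb8, a small heat shock protein, was among the 2 that stood higher, at 484, 435 and 499 FPKM in Sham+pimobendan and 479, 410.4 and 410.5 FPKM in Sham+control. The score was -0.14, -0.30 and -0.09 in Sham+pimobendan and 0.11, 0.09 and -0.20 in Sham+control, with the third control inside the treated range. Leaving out 1 sham library at a time left 15 to 18 of 20 lower. The number lower at an unadjusted p under 0.05 was 1 without the first treated mouse, 2 without the second treated, the first control or the second control, 3 without the third treated and 6 without the third control. The first control mouse had the highest value for Hsp90aa1 and Dnaja1, and also for the endoplasmic reticulum chaperone Hyou1, which had 9.85, 14.6 and 15.6 FPKM in Sham+pimobendan and 26.6, 13.7 and 14.1 FPKM in Sham+control.

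The heat shock element was looked for on both strands of the same promoter windows as GAA, any 2 bases, TTC, any 2 bases and GAA. It was found in 3 of the 15 list genes with a promoter (20%), beside 0.592% of the 9129 genes and 0.511% of all 11753 promoters. The promoters of Hsph1 and of Hspe1 are printed with the element in capitals. Hspe1 and Hspd1, which encode the mitochondrial chaperonin pair, lie head to head on chromosome 1 and their windows overlap over the same stretch, where 2 matches overlap each other, so it is printed once. Hsph1 (chr5:149636266-149636565, minus strand) had 9.63, 12.2 and 14.8 FPKM in Sham+pimobendan, against 16.04, 13.2 and 13.7 FPKM in Sham+control. Hspe1 (chr1:55087898-55088197, plus strand) had 119, 108 and 124 FPKM in Sham+pimobendan, against 127, 118 and 132 FPKM in Sham+control.
Hsph1: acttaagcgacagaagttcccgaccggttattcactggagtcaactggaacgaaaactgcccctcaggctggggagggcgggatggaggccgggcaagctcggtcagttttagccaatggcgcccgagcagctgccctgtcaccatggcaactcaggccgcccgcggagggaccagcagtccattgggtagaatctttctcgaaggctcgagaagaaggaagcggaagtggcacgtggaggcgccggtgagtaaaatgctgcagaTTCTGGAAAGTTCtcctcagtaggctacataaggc
Hspe1: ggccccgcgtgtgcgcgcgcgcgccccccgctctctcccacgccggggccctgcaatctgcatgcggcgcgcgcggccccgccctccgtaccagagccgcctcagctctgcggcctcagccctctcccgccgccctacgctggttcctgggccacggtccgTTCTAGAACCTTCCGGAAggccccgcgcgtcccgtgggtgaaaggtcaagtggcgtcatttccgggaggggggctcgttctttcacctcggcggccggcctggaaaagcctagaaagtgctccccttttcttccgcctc
Hspd1 had 124, 105 and 113 FPKM in Sham+pimobendan, against 148, 114 and 119 FPKM in Sham+control. Hsph1, Hspe1 and Hspd1 all overlapped between groups, with log2 differences of -0.23 ± 0.19, -0.10 ± 0.09 and -0.15 ± 0.11.

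Most extracellular matrix genes were higher in Sham+pimobendan, among them several of elastic fibres, and the size of the difference depended on single mice. Eln, which encodes elastin (chr5:134702595-134747368), had 11.2, 14.8 and 15.4 FPKM in Sham+pimobendan, against 6.47, 7.13 and 5.89 FPKM in Sham+control. The groups did not overlap and the log2 difference was 0.97 ± 0.30 (95% interval 0.32 to 1.62). Fbn1, the microfibril protein fibrillin-1, had 8.13, 15.6 and 8.85 FPKM in Sham+pimobendan, against 7.29, 4.12 and 6.34 FPKM in Sham+control (0.75 ± 0.25 log2). Fbln5, which helps elastin assemble, had 14, 17.8 and 14.5 FPKM in Sham+pimobendan and 11.95, 12.3 and 12.7 FPKM in Sham+control (0.30 ± 0.11 log2). Neither overlapped between groups. Mfap5, Loxl1 and Loxl2, a microfibril component and 2 crosslinking enzymes, also had an unadjusted p under 0.05 and overlapped between groups. Loxl1 had 17.9, 24 and 22.1 FPKM in Sham+pimobendan and 15.1, 11.5 and 18.6 FPKM in Sham+control. Col5a3, a minor fibrillar collagen chain outside the list, had 5.64, 6.85 and 6.49 FPKM in Sham+pimobendan, against 3.26, 2.24 and 2.42 FPKM in Sham+control, with no overlap and a log2 difference of 1.02 ± 0.27.

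Of 38 matrix genes tested, 32 were higher and 6 lower, 6 had an unadjusted p under 0.05 and all of these were higher, and the median log2 difference was 0.30, against 0.01 for all genes. The score was -0.02, 0.52 and 0.28 in Sham+pimobendan and 0.18, -0.23 and 0.06 in Sham+control, so the first treated mouse lay inside the control range. Col3a1, the fibrillar collagen of young scar, had 24.8, 73.4 and 50.5 FPKM in Sham+pimobendan and 40.8, 20.5 and 36.1 FPKM in Sham+control. Without the second treated mouse 26 of 38 were higher with 1 at an unadjusted p under 0.05, and without the second control 25 of 38 with 2. Without the first treated mouse 33 were higher, and an unadjusted p under 0.05 was reached by 14 higher genes and 1 lower gene. Markers of fibroblasts, of which 4 are also in the matrix list, were high and low in the same mice. Of 13 tested, 10 were higher, with a median of 0.13, summed levels of 1175 to 1335 FPKM in Sham+pimobendan and 1100.3 to 1334 FPKM in Sham+control, and scores of -0.03, 0.38 and 0.14 in Sham+pimobendan and 0.21, -0.25 and 0.04 in Sham+control. Tcf21, a transcription factor of cardiac fibroblasts, had 7.47, 9.65 and 10 FPKM in Sham+pimobendan and 7.47, 5.58 and 5.52 FPKM in Sham+control. In these bulk samples, more cells of a type and more RNA per cell cannot be told apart, and the part of fibroblast content in the matrix values was not tested.

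Markers of resident macrophages were also highest in the second treated mouse. Of 16 tested, 12 were higher and 4 lower, with a median of 0.15, but without that mouse 7 were higher and 9 lower, with a median of -0.02. The summed level was 412 to 608 FPKM in Sham+pimobendan and 375 to 469 FPKM in Sham+control and the scores were -0.13, 0.38 and 0.12 in Sham+pimobendan and 0.13, -0.11 and -0.02 in Sham+control. Lyz2, the macrophage lysozyme, had 152, 225 and 171 FPKM in Sham+pimobendan, against 145, 113 and 142 FPKM in Sham+control, with no overlap (0.44 ± 0.14 log2). Its near-identical neighbour Lyz1, with which it can share reads, had 12.7, 13.2 and 13.8 FPKM in Sham+pimobendan and 10.8, 7.77 and 10.02 FPKM in Sham+control. Ccl8, a chemokine made by such cells, had 1.65, 3.37 and 2.32 FPKM in Sham+pimobendan, against 0.84, 0.43 and 1.33 FPKM in Sham+control (0.88 ± 0.24 log2). The DNA replication and mitosis list was highest in the second treated mouse as well, at scores of -0.29, 0.50 and 0.11 in Sham+pimobendan and -0.04, -0.16 and 0.19 in Sham+control, with 16 of 21 higher, but 9 of 21 without that mouse, and the summed neutrophil markers were 0.79, 7.1 and 2.61 FPKM in Sham+pimobendan and 1.07, 1.79 and 1.79 FPKM in Sham+control. Endothelial markers had a median of 0.13 (11 of 15 higher), smooth muscle and pericyte markers -0.03 (5 of 14 higher, and 8 to 10 without control 1 or 3 or treated mouse 1) and Schwann cell markers 0.18 (4 of 5 higher). Ventricular muscle markers were lower in 6 of 9, with a median of -0.10 and scores of -0.12, -0.12 and -0.07 in Sham+pimobendan and -0.03, 0.01 and 0.03 in Sham+control, which did not overlap. Hey2, a factor of the compact ventricular wall, had 2.59, 2.57 and 2.19 FPKM in Sham+pimobendan, against 3.59, 3.93 and 3.18 FPKM in Sham+control (-0.40 ± 0.11 log2).

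**Figure D4:**
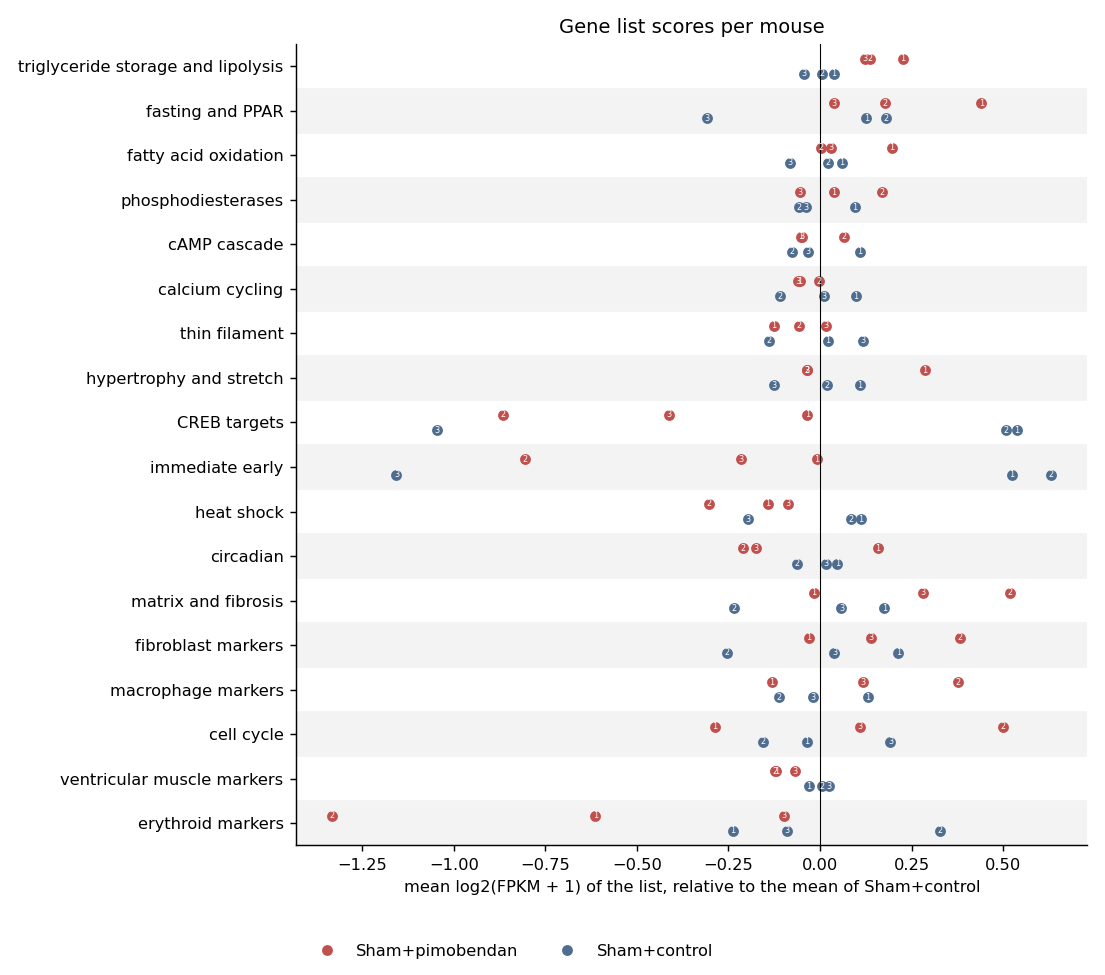
For 18 gene lists (rows), each point is 1 sham-operated mouse, numbered by replicate. The x axis is the mean log2(FPKM + 1) of the list's tested genes relative to the mean of Sham+control, with Sham+pimobendan above Sham+control in each row. The triglyceride list, put together after the values were seen, is wholly higher and the ventricular muscle markers wholly lower with pimobendan. The second treated mouse is highest for matrix, fibroblast, macrophage and cell cycle genes and lowest for erythroid markers.

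Red cell transcripts were lower with pimobendan by about 1 log2 unit, with a wide spread. Hbb-bt, a beta globin, had 33.2, 22.04 and 85.1 FPKM in Sham+pimobendan, against 68.7, 127 and 94.8 FPKM in Sham+control (-1.22 ± 0.42 log2). Alas2, the erythroid enzyme of heme synthesis, had 2.92, 1.54 and 4.07 FPKM in Sham+pimobendan, against 4.76, 6.81 and 4.61 FPKM in Sham+control, without overlap (-0.77 ± 0.26 log2). Of 8 erythroid genes tested, 6 were lower and 2 higher, 5 had an unadjusted p under 0.05 and were lower, and the median was -0.93. The 4 globins in the list, Hba-a1, Hba-a2, Hbb-bs and Hbb-bt, are near-identical pairs that can share reads. The summed level was 542 to 1996 FPKM in Sham+pimobendan and 1643 to 3156 FPKM in Sham+control, and scores were -0.61, -1.33 and -0.10 in Sham+pimobendan and -0.24, 0.33 and -0.09 in Sham+control. Without the second treated mouse the median was -0.52 and 0 of the 8 had an unadjusted p under 0.05, and without the second control it was -0.72 with 0. The amount of blood left in each ventricle was not measured, and its part in these values was not tested.

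Markers of hypertrophy and wall stretch did not separate the groups. Nppa, which encodes atrial natriuretic peptide, had 554, 245 and 230.1 FPKM in Sham+pimobendan, against 222, 271 and 310.4 FPKM in Sham+control. Nppb, the B-type peptide, had 620.2, 482 and 1117 FPKM in Sham+pimobendan, against 587, 661 and 550.3 FPKM in Sham+control. Nppa was highest in the first treated mouse and Nppb in the third. Myh7, the slow beta myosin that rises in loaded mouse ventricle, had 121, 10.2 and 6.37 FPKM in Sham+pimobendan, against 28.3, 21.99 and 4.51 FPKM in Sham+control (chr14:54970684-54994626), so the first treated mouse stood far above every other value. The log2 difference was 0.48 ± 0.92 (95% interval -1.51 to 2.46). Myh6, the fast alpha myosin of adult mouse heart, was lower without overlap at 4907, 4699 and 4824 FPKM in Sham+pimobendan, against 4997, 5218 and 5257 FPKM in Sham+control, a log2 difference of -0.10 ± 0.06. Myh6 and Myh7 are close paralogs that can share reads. Skeletal actin Acta1 differed by 0.38 ± 0.60 and the stretch-responsive Ankrd1 by 0.03 ± 0.30. Over the 18 genes of the list 11 were higher and 7 lower, the median was 0.05, and 0 had an unadjusted p under 0.05. Without the first treated mouse 9 were higher and 9 lower. The list score was 0.29, -0.04 and -0.03 in Sham+pimobendan and 0.11, 0.02 and -0.13 in Sham+control.

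Sarcomere, calcium and channel genes had medians near 0, and some members of each list did not overlap. Higher and lower without overlap were 0 and 2 of 14 thin filament and 0 and 4 of 23 thick filament, titin and Z-disc genes. They were 1 and 4 of 28 calcium cycling genes and 2 and 3 of 28 channel genes, beside 6.16% and 4.98% of all genes. Of 14 thin filament genes 10 were lower (median -0.06), but 7 were lower without the third control. Of 23 thick filament, titin and Z-disc genes 14 were lower (median -0.07). Titin (Ttn), the elastic spring of the sarcomere, had 28.6, 27.5 and 23.5 FPKM in Sham+pimobendan, against 39.2, 30.1 and 30.1 FPKM in Sham+control. The nebulin relative Nebl had 14.3, 14.2 and 12.2 FPKM in Sham+pimobendan and 21.9, 15.9 and 15.8 FPKM in Sham+control. Both were lower without overlap. Of 28 calcium cycling genes, 17 were lower and 0 had an unadjusted p under 0.05, and without the first control 12 were lower. S100a1, a calcium sensor that supports pump and ryanodine receptor, had 1571, 1328 and 1584 FPKM in Sham+pimobendan and 1177, 1431 and 1307 FPKM in Sham+control, with overlap. Atp2b1, a plasma membrane calcium pump, had 3.75, 3.89 and 3.49 FPKM in Sham+pimobendan and 5.67, 4.16 and 4.36 FPKM in Sham+control, lower without overlap. Among 28 ion channel and transporter genes 4 had an unadjusted p under 0.05, 2 in each direction. Kcnj2, which carries the inward rectifier current that sets the resting potential, had 6.66, 7.14 and 6.49 FPKM in Sham+pimobendan, against 10.5, 8.67 and 8.64 FPKM in Sham+control (-0.40 ± 0.13 log2). Its groups did not overlap. The background potassium channel Kcnk3 had 116, 125 and 122 FPKM in Sham+pimobendan and 99.1, 97.01 and 118 FPKM in Sham+control, with overlap.

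The study asks about the MAP kinase pathway, and none of its 33 transcripts tested had an unadjusted p under 0.05 in unloaded hearts. Mapk3, a kinase at the end of the cascade, had 51.8, 73.7 and 58.96 FPKM in Sham+pimobendan, against 50.9, 50.7 and 64.7 FPKM in Sham+control. The groups overlapped, with a log2 difference of 0.14 ± 0.13 (95% interval -0.14 to 0.42). Of the 33 cascade genes 19 were higher and 14 lower, and the median was 0.03. Without the second treated mouse or the second control 15 were higher and 18 lower, and with the GC correction 16 and 17. Sos1, an exchange factor that relays receptor signals into the cascade, had 1.88, 2.14 and 1.72 FPKM in Sham+pimobendan and 2.96, 2.26 and 2.21 FPKM in Sham+control, lower without overlap. Feedback inhibitors of the cascade were 7 higher and 8 lower of 15, and 9 and 6 without the first control, with Spry2 at 14.1, 16.4 and 14.9 FPKM in Sham+pimobendan and 26.1, 21.7 and 13.6 FPKM in Sham+control. These values are transcript levels and do not measure phosphorylation of the kinases.

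Clock genes differed in part, and the sampling time is not given. Nr1d1 (REV-ERB-alpha), a repressor of the clock, had 54.3, 84.5 and 105 FPKM in Sham+pimobendan, against 26.1, 18.7 and 66.5 FPKM in Sham+control, the largest positive log2 difference of all genes tested (1.26 ± 0.56). Hlf, a clock-controlled PAR bZIP factor, had 8.16, 6.13 and 5.69 FPKM in Sham+pimobendan, against 9.29, 8.74 and 10.2 FPKM in Sham+control. Rora, which opposes Nr1d1 at the same sites, had 2.01, 1.85 and 1.69 FPKM in Sham+pimobendan and 3.12, 2.91 and 2.08 FPKM in Sham+control. Both were lower without overlap, while Nr1d1 overlapped through the third control. Of 19 clock genes 13 were lower and 6 higher, with a median of -0.21, 1 higher and 2 lower at an unadjusted p under 0.05. The score was 0.16, -0.21 and -0.18 in Sham+pimobendan and 0.05, -0.06 and 0.02 in Sham+control, with the first treated mouse above every control. Lower genes at that p numbered 5 without the first treated mouse and 0 without the second or the third. Ciart, another clock output, ran from 3.59 to 24.3 FPKM within Sham+pimobendan. Per1, also a CREB target, had 34.95, 12.5 and 12.3 FPKM in Sham+pimobendan and 29.95, 27.99 and 14.03 FPKM in Sham+control. Metallothionein Mt2 had 170.3, 65.98 and 97.5 FPKM in Sham+pimobendan, against 36.7, 57.1 and 60.1 FPKM in Sham+control, with no overlap (1.03 ± 0.40 log2), while its neighbour Mt1 overlapped. The glucocorticoid receptor Nr3c1 had 9.51, 10.5 and 9.08 FPKM in Sham+pimobendan and 15.1, 9.8 and 11.97 FPKM in Sham+control. Over the 15 genes of the glucocorticoid and metallothionein list, 9 were higher and 6 lower. Single mice turned this count, which was 5 higher and 10 lower without the first treated mouse, 4 and 11 without the third control, and 7 and 8 without the first control.

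Splicing regulators were mostly lower, and 1 stood out upward. Srsf5, a serine- and arginine-rich splicing factor (chr12:80945495-80950507), had a log2 difference of 0.69 ± 0.16 (95% interval 0.34 to 1.04), with group means of 80.9 ± 16.5 FPKM in Sham+pimobendan and 49.3 ± 6.4 FPKM in Sham+control (SD, n = 3 each) and no overlap. Luc7l3, a U1 snRNP-associated factor, was lower at 6.73, 5.73 and 4.68 FPKM in Sham+pimobendan, against 11.97, 8.36 and 8.1 FPKM in Sham+control, without overlap. Srsf3, another serine- and arginine-rich factor, had 22.4, 22.2 and 22.6 FPKM in Sham+pimobendan and 32.3, 30.2 and 21.8 FPKM in Sham+control, with overlap. Of 27 splicing and cold-inducible genes tested, 20 were lower and 7 higher, with a median of -0.17, or -0.10 with the GC correction. The score was -0.04, -0.09 and -0.24 in Sham+pimobendan and 0.09, 0.01 and -0.09 in Sham+control, with overlap. At an unadjusted p under 0.05, 1 was higher and 2 were lower. The lower count was 0 without the first control or the third treated mouse, and 8 without the third control. Srpk2, a kinase that phosphorylates such factors, and Prpf38b, a spliceosome component, were among the 10 leading lower genes. Srpk2 had 8.49, 7.94 and 7.3 FPKM in Sham+pimobendan and 11.7, 11.1 and 9.2 FPKM in Sham+control. Prpf38b had 4.88, 5.22 and 4.47 FPKM in Sham+pimobendan and 9.1, 6.64 and 6.15 FPKM in Sham+control.

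The other leading genes were of varied function and all had groups that did not overlap, which the rule for naming them required. Isoc2b, an isochorismatase-domain protein with a close paralog, had 7.08, 7.36 and 8.12 FPKM in Sham+pimobendan, against 5.3, 5.59 and 5.66 FPKM in Sham+control. Galnt18, a glycosyltransferase, had 6.67, 9.25 and 9.37 FPKM in Sham+pimobendan and 5.41, 4.33 and 6 FPKM in Sham+control. Upp1, which splits uridine, had 6.9, 6.6 and 8 FPKM in Sham+pimobendan and 3.98, 4.74 and 4.71 FPKM in Sham+control. Together with Apmap these genes had log2 differences between 0.29 (Apmap) and 0.59 (Galnt18). Among the lower genes, Vcam1, the endothelial adhesion molecule for leukocytes (chr3:116110020-116129688), had 4.48, 5.26 and 4.12 FPKM in Sham+pimobendan, against 6.58, 7.15 and 6.52 FPKM in Sham+control. Its log2 difference was -0.47 ± 0.14 (95% interval -0.77 to -0.16). Gsta3, a glutathione transferase, had 6.6, 3.06 and 4.21 FPKM in Sham+pimobendan and 10.8, 12.1 and 6.85 FPKM in Sham+control. The others, Auts2, Maco1, Slc25a38 (a mitochondrial glycine carrier), Crlf3 and Paip2b, had log2 differences between -0.60 (Auts2) and -0.30 (Paip2b).

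Immune lists had medians from -0.01 to 0.11 and stress lists from -0.06 to 0.01, beside 0.01 for all genes. Of 33 interferon-stimulated genes 16 were higher and 17 lower, and without the first control 21 were higher. Irf9, a subunit of the interferon-activated factor, had 20.3, 11.4 and 9.88 FPKM in Sham+pimobendan, against 7.93, 8.98 and 8.98 FPKM in Sham+control, with the first treated mouse far above the rest. Rtp4, another interferon-stimulated gene, had 8.03, 6.47 and 7.88 FPKM in Sham+pimobendan and 5.44, 5.37 and 6.62 FPKM in Sham+control. Antigen presentation genes were higher in 13 of 15 (median 0.11), with the class I chain H2-D1, which has close paralogs, at 154, 179 and 152 FPKM in Sham+pimobendan and 129.8, 134 and 142 FPKM in Sham+control. NF-kappaB targets and chemokines were higher in 17 of 25 (median 0.11), among them Cx3cl1 at 5.99, 8.34 and 7.6 FPKM in Sham+pimobendan and 5.69, 4.08 and 5.42 FPKM in Sham+control. Endoplasmic reticulum stress genes were higher in 8 of 22 (median -0.06), FoxO targets and atrogenes in 7 of 18 (median -0.01) and hypoxia genes in 8 of 16 (median 0.01). Without the first control 13 of the 22 endoplasmic reticulum genes were higher, and 13 of the 18 FoxO genes without the second control and 11 without the third treated mouse. Hypoxia genes were 7 to 12 of 16 higher without 1 mouse. Heme oxygenase, Hmox1, had 12.95, 20.2 and 11.95 FPKM in Sham+pimobendan and 8.3, 9.42 and 14.3 FPKM in Sham+control. Cytosolic ribosomal proteins were higher in 57 of 80 (median 0.06), 11 higher without overlap (against 6.16% of all genes) and 2, Rpl34 and Rpl39, with an unadjusted p under 0.05. Rpl34 had 433, 423 and 422 FPKM in Sham+pimobendan, against 381, 382 and 358 FPKM in Sham+control. Mitochondrial ribosomal proteins were higher in 52 of 78 (median 0.03), but lower in 40 of 78 with quantile normalization, in 47 of 78 without the first control and in 48 of 78 without the third treated mouse.

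The drug effect after TAC gives a comparison whose log2 differences come from 6 other libraries, none shared with the sham comparison. The spread in its test was estimated from all 12 libraries, so the choice of genes is not independent of the sham mice. In that contrast 373 genes (3.27%) passed an adjusted p under 0.05, 360 rising (3.15%) and 13 falling (0.114%) with pimobendan. That count was not stable. It was 1190, 0 and 3 without TAC+pimobendan mouse 1, 2 and 3, and 3, 409 and 0 without TAC+control mouse 1, 2 and 3, a check added after the values were seen. It was also 0 with median-ratio scaling, with quantile normalization or without the expression filter, and 1110 with TPM. The number rising was 617, 1 and 194 without Sham+control mouse 1, 2 and 3. Without Sham+pimobendan mouse 1, 2 and 3 that number was 150, 1 and 245. Of the 360 that rose, 84 were higher and 276 lower after sham (76.7%, against 46.3% of all genes), with a median log2 difference of -0.12, against 0.01 for all genes, and 8 were higher and 66 lower without overlap, beside 6.16% and 4.98% of all genes. The test of the difference itself, the interaction, called 0 of 11415 genes (0%), with a smallest adjusted p of 0.0853 and 2312 genes (20.3%) at an unadjusted p under 0.05. Without the first TAC+pimobendan mouse it called 773 genes, 738 of them with the higher drug effect after TAC, and without the first TAC+control mouse 1. Srsf5 rose with pimobendan after TAC (limma adjusted p 0.0309), at 86.8, 85.5 and 61.6 FPKM in TAC+pimobendan, against 31.7, 32.1 and 29.4 FPKM in TAC+control. Irf9, Rtp4, Lyz1 and S100a4 also rose after TAC and were higher after sham, by 0.56, 0.31, 0.45 and 0.42 on the log2 scale. Alas2 fell after TAC (-1.22 log2, adjusted p 0.0409 with limma) and was lower after sham.

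Other genes that rose with pimobendan after TAC were lower with it after sham, among them Suz12, Eprs and Chrm2. Suz12, a Polycomb subunit, had 2.29, 2.66 and 1.99 FPKM in Sham+pimobendan, against 3.95, 3.45 and 3.16 FPKM in Sham+control, and 3.79, 6.07 and 4.95 FPKM in TAC+pimobendan, against 2.28, 2.47 and 2.78 FPKM in TAC+control. Eprs, a transfer RNA synthetase, had 17.1, 15.6 and 15.5 FPKM in Sham+pimobendan, against 24.3, 18.95 and 21.3 FPKM in Sham+control, and 21.5, 27.7 and 28.6 FPKM in TAC+pimobendan, against 14.7, 19.2 and 14.9 FPKM in TAC+control. Chrm2, the muscarinic receptor through which the vagus slows the heart, had 17.6, 14.8 and 11.5 FPKM in Sham+pimobendan, against 19.9, 17.6 and 15.6 FPKM in Sham+control, and 20.4, 29.3 and 31.3 FPKM in TAC+pimobendan, against 11.3, 14.9 and 12.8 FPKM in TAC+control. For Suz12 and Eprs the treated mice were lower than all controls after sham and higher than all controls after TAC, while Chrm2 overlapped after sham. Their interaction did not pass an adjusted p of 0.05 in limma.

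**Figure D5:**
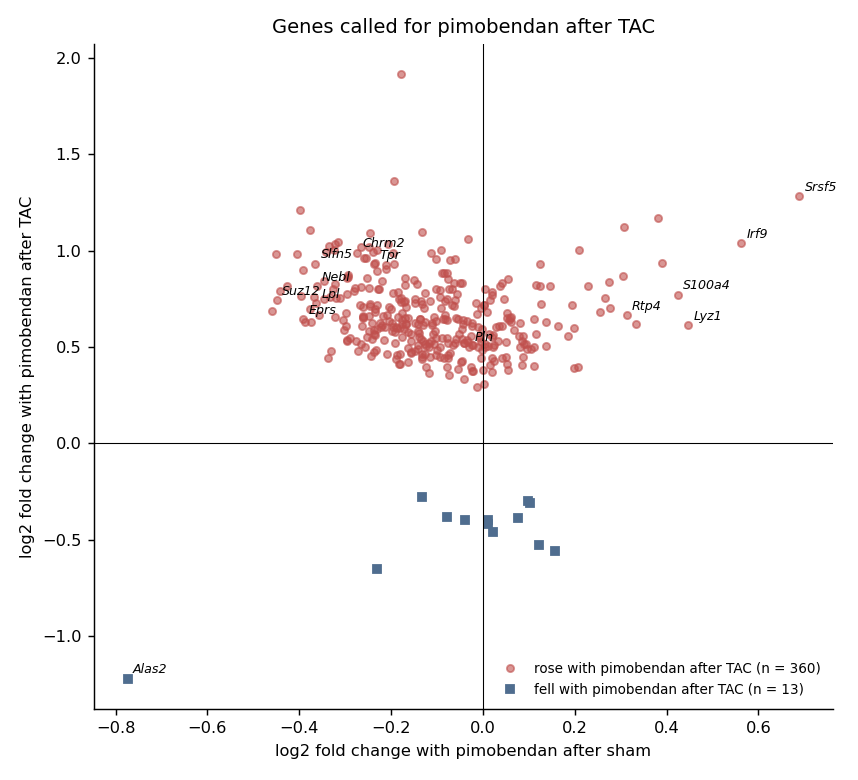
Each point is 1 of the 373 genes called for pimobendan after TAC, with the drug's log2 fold change after sham on the x axis and after TAC on the y axis. Red circles are the 360 genes that rose after TAC, 276 of which lie left of zero after sham. Blue squares are the 13 that fell, 8 of them right of zero.

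Base composition moved with these values. The median GC content of transcripts was 44.2% over the 360 genes and 51.1% over all 11334 tested genes with a GC value. A library's GC trend was taken as the Spearman correlation across genes between GC content and the deviation from the gene's mean over 12 libraries. It was 0.14, 0.36 and 0.53 in Sham+pimobendan and -0.35, 0.08 and 0.46 in Sham+control, with means of 0.34 ± 0.19 and 0.06 ± 0.41 (SD, n = 3 each). An exact two-sided permutation test of this sham difference over 20 splits gave p = 0.4, where 0.1 is the smallest that 3 against 3 mice allow. After TAC the GC trend was -0.20, -0.50 and -0.52 in TAC+pimobendan and 0.13, 0.01 and 0.28 in TAC+control. The TAC groups did not overlap, and their difference was not tested. The 299 genes higher in Sham+pimobendan at an unadjusted p under 0.05 had a median GC content of 53.9%, and the 219 lower ones 46.6%. When each library's GC trend was removed, 222 of the 360 genes were lower after sham, and of the 142 genes that then rose after TAC 70 were lower after sham (49.3%), against 47.7% of all genes. With the trend removed, the share of lower genes was 61.7% in the original 360 genes and 49.3% in the 142, a different set. Both stand beside 47.7% of all genes, and the part of base composition in these values was not tested. Aqp7, Plin5, Lipe and Pde2a lay at 50.3%, 58.7%, 56.6% and 55.2% GC, and none of the 65 named genes with an unadjusted p under 0.05 had the other sign with the trend removed. The 65 include genes named by a small p in these same values, so the kept sign is no independent check.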

How the data were processed

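Left ventricular messenger RNA of 12 mice, 3 per group, was selected with oligo(dT) and sequenced, per the labels' protocols. FPKM and TPM per gene were computed by the authors and deposited in 1 table, rounded to 2 decimals. The submitters' processing notes name RSEM 1.2.12, DESeq2 1.4.5, the aligners HISAT2 2.0.4 and Bowtie2 2.2.5, and build GRCm38, without what each was used for. The table holds no counts, so depth is unknown and no count test was made. How reads shared by paralogs were assigned, and whether strand was used, is not given in the sources used here.

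The expression filter, 1 FPKM or more in 3 or more of 12 libraries, kept 11415 of 17052 genes. Values were taken as log2(FPKM + 1) and fitted with limma 3.58.1 (trend, R 4.3.3) with 1 mean per group over all 12 libraries, 8 residual degrees of freedom and 95% intervals. Adjustment for multiple tests was Benjamini-Hochberg's over all 11415 genes, and an adjusted p under 0.05 was called. Scripts were tested on simulated data. Gene coordinates and promoters are RefSeq's on GRCm38.p6, and 16941 table genes had coordinates. GC content is the median over a gene's GENCODE transcripts. TPM, other scalings, filters and pseudocounts, the sham libraries alone, a replicate block, a GC correction and each library left out were tried as alternatives.

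Genes, gene lists and tests were chosen with earlier results of these data known. Genes were named by rule. The rule took a panel of drug target and heart genes, the 10 leading genes in each direction by p without overlap and with at least 5 FPKM, the 2 or 3 leading members of each list, genes called after TAC, genes leading the interaction, and genes with the widest spread. A few genes that the rule took are not reported here. Agpat2, Btg2, Col3a1, Cpt1a, Dusp1, Hk2, Hspa8, Hspb8, Hspd1, Hspe1, Hsph1, Loxl1, Loxl2, Lpl, Mfap5, Mgll, Mt1, Myl2, Nr1d1 and Pdk4 were chosen after their values were seen. So were the triglyceride list, the counts per list at an unadjusted p, and the counts of TAC genes after sham and without single libraries. Same-numbered mice of the 2 sham groups had correlations of deviations of 0.05, -0.36 and 0.25, so the numbers were not taken as pairs.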

Additional observations from a re-analysis of the deposited data

Results flagged for a closer look

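For 20 named genes the pimobendan and control mice did not overlap after sham or after TAC, and the direction was opposite in the 2 settings. Part of the rule for naming genes used calls after TAC, the p after sham, the interaction p and lack of overlap. The pattern is thus partly selected from the values it describes, and its share over all genes is not given here. The value given is the interaction, which is the log2 difference after TAC (TAC+pimobendan minus TAC+control) minus that after sham (Sham+pimobendan minus Sham+control). No interaction passed limma's adjusted p of 0.05, and 20.3% of all genes had an unadjusted p under 0.05, so these are values to look at again and not calls.

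Lower after sham and higher after TAC were 17 genes. Among muscle and channel genes the interaction was 1.18 for Nebl, 0.86 for Ttn, 0.80 for Atp2b1 and 0.89 for Kcnj2. It was 0.86 for Pfkfb2, 0.68 for Srpk2, 0.40 for Paip2b, 0.64 for Sos1 and 0.17 for Sdha, a subunit of succinate dehydrogenase. Genes of transcription, translation, chromosomes and defence gave 1.09 for Parp14, 0.78 for Nfxl1, 1.19 for Suz12, 1.03 for Eprs, 0.81 for Smc1a, 1.298 for Slfn5, 1.17 for Tpr and 1.02 for Eif5b. Slfn5 had 7.58, 7.17 and 5.93 FPKM in Sham+pimobendan, against 9.48, 10.5 and 7.63 FPKM in Sham+control, and 10.1, 16.1 and 15.3 FPKM in TAC+pimobendan, against 6.47, 7.61 and 5.93 FPKM in TAC+control.

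Higher after sham and lower after TAC were Isoc2b, with an interaction of -0.62, Cpt1b with -0.42 and Cox7a1 with -0.32. Cpt1b had 340.4, 291 and 329.9 FPKM in TAC+pimobendan, against 377, 398 and 379 FPKM in TAC+control, beside the sham values given above. Without the first TAC+pimobendan mouse 773 genes were called for the interaction. The GC trends given above overlapped between the sham groups and did not overlap between the TAC groups. The part of that mouse and of the GC trends in these values was not tested.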

How the results depend on the processing

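The count of genes called for pimobendan after sham was 0 in all 16 alternatives, leaving out each sham library included (0 to 0). At an unadjusted p under 0.05 it was 518, and 309 to 863 over the alternatives, and the smallest adjusted p in any alternative was 0.398, with only the 6 sham libraries fitted. With a replicate block 0 genes were called and 410 had an unadjusted p under 0.05. The drug count after TAC, 373, became 0 with median-ratio scaling, quantile normalization or no filter, 1110 with TPM, 143 with the GC correction, 1 with the replicate block and 0 with the block and GC correction together. It ran from 0 to 1190 when 1 TAC library was left out, an alternative chosen after seeing the data. The interaction count, 0, ran from 0 to 773 when 1 library was left out. The difference in GC trend, 0.28, ran from 0.07 to 0.48 without 1 sham library. The cause of these shifts was not tested. Of 158 named genes, 65 had an unadjusted p under 0.05, and 0 of these had the other sign in any alternative. Of the other 93, 26 had it in at least 1. The 65 include genes named by a small p or lack of overlap in these same values. Some alternatives, such as the replicate block, also leave the log2 fold change as it was, so the 0 is no independent check. Of 44 lists with a median, 20 had the same sign in all 14 alternatives. With depth unknown and 3 mice a group, the median gene had an unadjusted 95% interval reaching 0.27 log2 to either side of its estimate.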
